A study of Mus musculus with 18 samples.

Results

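The genes described here encode the proteins of the cytosolic ribosome. They were taken by name, as every gene with a symbol of its own in the array annotation that begins with Rpl or Rps and a digit, together with Rpsa, Rplp0 and Rplp2, leaving out the Rps6k kinases and pseudogenes. This gave 50 of the 18193 genes on the array, with 106 probe sets between them. The probe set with the highest mean over all arrays stood for each gene. Of the 50, 22 belong to the large subunit, 21 to the small subunit and 6 are paralogues of a ribosomal protein (Rpl3l, Rpl7l1, Rpl22l1, Rpl39l, Rps4l and Rps27l). The remaining gene, Rps19bp1, encodes a protein that binds Rps19 and was taken in by its name alone. A further 110 probe sets list a ribosomal protein gene together with other genes and were left out, which is why Rplp1, Rpl5 and Rps27a, among others, have no value here.

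The ribosome joins a small subunit, which reads the mRNA, to a large subunit, which forms the peptide bond. Each subunit holds ribosomal RNA and a set of proteins, most of which are needed in equal number. The mRNAs of these proteins are among the most abundant of a growing cell. Many of them start with a C followed by a run of pyrimidines, the terminal oligopyrimidine tract, through which mTOR signalling and LARP1 control their translation. In the retina, dividing progenitors are replaced after birth by neurons and glia that no longer divide.

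Retinas of Plk3-KO mice and WT littermates were measured on 18 Affymetrix mouse expression arrays, 3 for each genotype in the adult, at postnatal day 7 (P7) and at P0. Arrays are named below by genotype and number, such as KO2 and WT3. Plk3-KO mice lack the 5' exons of Plk3, a polo-like kinase. The line, labelled as C57Bl/6, had been partly of Black Swiss background and was crossed to C57Bl/6 mice to remove the rd1 allele of Pde6b, so that all groups share this history. The labels do not say how many animals were behind an array or which litter they came from, and p-values measure the spread between these arrays. Values are log2 MAS5 signals, so that a difference of 1 is a doubling, and they were tested with limma at an adjusted p under 0.05 over all probe sets with a mean above 7 in a group compared.

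The starts of these genes are shown because the pyrimidine tract is the sequence feature for which the family is known. Of the 50 genes, 44 have at least 1 annotated start in the RefSeq promoter table for GRCm38.p6, with 52 starts in all. In 8 of the 44 (18.2%), the base at the start was a C followed by at least 4 bases that were each C or T, on the strand of the gene. Among all 27025 genes of the table the share was 3.01%. The 8 starts follow, with 10 bases before the start and the tract in capitals, each with its position in GRCm38.p6.
Rpl14: ggccctctctCTTCTCgctgagcgc (chr9:120571507-120571531, plus strand)
Rpl35: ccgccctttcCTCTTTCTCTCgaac (chr2:39005117-39005141, minus strand)
Rpl38: aagcctcgttCTTTCCCCgttctct (chr11:114668570-114668594, plus strand)
Rplp2: cagcgtcttcCTTTCgccgccggac (chr7:141447641-141447665, plus strand)
Rps6: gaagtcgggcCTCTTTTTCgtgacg (chr4:86857353-86857377, minus strand)
Rps10: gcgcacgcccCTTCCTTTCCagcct (chr17:27635230-27635254, minus strand)
Rps18: cacttccgctCTCTCTTCCacagga (chr17:33955651-33955675, minus strand)
Rps27: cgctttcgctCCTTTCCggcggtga (chr3:90213634-90213658, minus strand)
The tracts ran from 5 bases in Rplp2 to 11 in Rpl35. The starts of the 3 genes with the largest fall from P0 to the adult, Rpl12, Rps27l and Rps25, are shown for comparison, with only the start base in capitals, since none began with such a tract. Rps27l has 2 annotated starts.
Rpl12: agcaggatccGtcttttcggctttc (chr2:32961702-32961726, plus strand)
Rps27l: cctccccgccGcctctatcccggaa (chr9:66946076-66946100, plus strand)
Rps27l: gggcttcaggGtcactaacgggcct (chr9:66946403-66946427, plus strand)
Rps25: ccgacatcttAgcgaggctgctgtg (chr9:44407704-44407728, plus strand)
A match describes the annotated letters, and the annotated start need not be the one used in the retina. The adult minus P0 difference had a median of 0.09 in the 8 genes with a tract, from -1.08 in Rps6 to 1.17 in Rps27, and of 0.08 in the 33 other measured genes with an annotated start, from -1.92 to 0.98.

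Markers of rods and of dividing cells moved in opposite directions with age. The rod gene Sag had log2 values from 11.1 to 12 on the P0 arrays and from 15.3 to 16.7 on the adult arrays, while the proliferation gene Mki67 went from 13 to 13.2 at P0 down to 0.3 to 3.8 in the adult. The probe set of Plk3 lies at the 3' end, outside the deleted exons, so that it does not check the deletion. Its values were 7.4 to 8.0 in Plk3-KO and 3.9 to 5.9 in WT retinas of adults, 6.1 to 8.1 and 6.0 to 6.3 at P7, and 7.5 to 8.2 and 6.4 to 7.3 at P0, so that the genotypes overlapped at P7 alone. Lens genes varied strongly, with the median deviation of 7 lens genes between -4.19 and 5.0 on single arrays. Of 8 pigment epithelium genes on the array, 7 passed the filter, and Best1, with a mean of 2.99 over the arrays, did not. Of these 7, 6 (85.7%) were higher in the adult than at P0 (median 3.62), against 26.3% of all probe sets tested. Mlana and Lrat had means of 6.33 and 6.18 over the arrays, under the filter level of 7. They were thus tested by their level in the group where they were high. This filter favours genes that differ between the ages, so that it has a part in this share. The part of these tissues in the values was not tested. The medians of single arrays ran from 6.3 to 7.2, and the difference between 3' and 5' probe sets of actin, a measure of RNA quality, from 0.8 to 2.7 with its highest value on the adult array KO3. From earlier results of these data, 4 arrays were known to stand apart, the adult arrays KO3 and WT3, with medians of 7.2 and 7.0 against 6.3 to 6.5 on the other 4 adult arrays, and the P7 arrays KO2 and WT3.

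Of the 50 genes, 47 had a mean above 7 in at least 1 group and were tested. The other 3 were the paralogues Rpl3l and Rpl39l and the small subunit gene Rps16, whose probe set lay between -1.4 and 2.2 on all arrays. For 35 of the 47, the mean over the 18 arrays was above 13, a level that 597 of the 24775 probe sets tested between adult and P0 exceeded.

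Ribosomal protein genes rose and fell together from array to array. Each gene was set against its own mean over the 18 arrays, and the median over the 47 genes was taken on each array. At P0 it stayed between -0.17 and 0.18. At P7 it was 0.51 on KO2 and 0.66 on WT3, but -0.28, -0.28, -0.26 and -0.59 on KO1, KO3, WT1 and WT2. In the adult it ran from -0.51 on WT3 to 0.47 on KO3, with 0.12, -0.21, 0.41 and 0.08 on KO1, KO2, WT1 and WT2. Thus the arrays of each genotype overlapped at every age, and the spread lay within the groups.

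This pattern was shared with other bright probe sets. At P7, KO2 and WT3 lay above the other 4 arrays in 39 of the 47 genes (83.0%), in 87.0% of 385 other probe sets with a mean above 13, and in 15.1% of all 25085 probe sets tested. The same 2 arrays had an actin difference of 1.6, against 0.8 to 1.1 on the other 4, and medians of 6.4 against 6.8 to 6.9. WT3 was the lowest adult array in 37 of the 47 genes (78.7%), in 54.3% of the other bright probe sets and in 12.4% of all. Whether RNA quality or the scaling of the arrays gave these shifts was not tested.

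**Figure D1:**
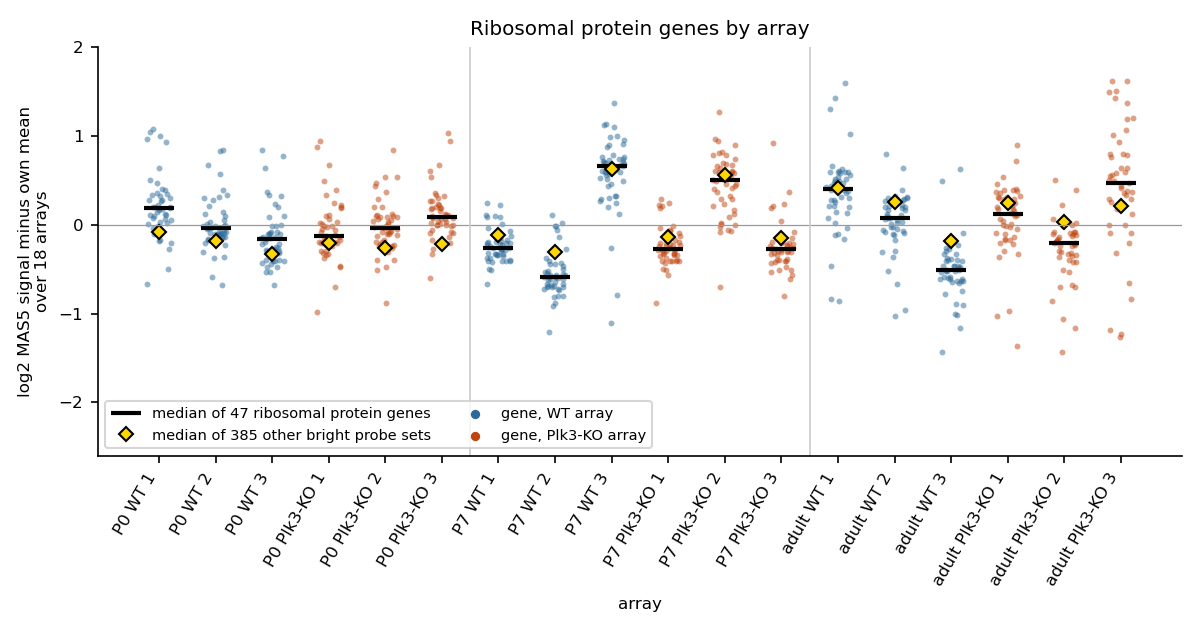
Log2 MAS5 signal of 47 ribosomal protein genes on each of the 18 arrays (x axis), given as the deviation of each gene from its own mean (y axis). Points are genes, bars their median and diamonds the median of 385 other bright probe sets. At P7 the bars of KO2 and WT3 stand at 0.51 and 0.66, above the other 4.

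From P0 to the adult, a few ribosomal protein genes passed the test on the deposited values and most did not, and these counts changed with the scaling, as given below. Of the 47, 4 were higher in the adult, against 26.3% of all 24775 probe sets tested, and 7 were lower, against 36.6%. Leaving out the adult array WT3 or KO2 raised the count of higher genes to 9 or 8. The other 36 had differences from -0.55 to 0.58. The median standard error of the 47 genes was 0.256, so that not passing does not show that a gene stayed the same. The median difference was 0.10 over the 47 genes and -0.22 over all probe sets tested. By subunit, 1 gene rose and 2 fell of 22 in the large subunit, 2 rose and 4 fell of 20 in the small subunit, and 1 rose and 1 fell of the 4 paralogues tested. Rod genes rose over the same interval (12 of 12, median 6.23), and progenitor and cell cycle genes fell (17 of 17, median -4.73), so that fewer cells of a type and less RNA per cell cannot be told apart in these whole retinas. The part of these cell types in the values was not tested.

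Rpl12, which encodes a protein of the stalk base of the large subunit where translation factors bind, fell most. It was read from 1 probe set, with a mean of 8.36 over the arrays. Its log2 signal was 9.2, 9.25 and 9.4 at P0 (lowest, median and highest of 6 arrays), 8.3, 8.5 and 8.6 at P7, and 7.0, 7.3 and 7.9 in the adult. The 3 ages did not overlap on any array. The adult minus P0 difference was -1.92 with a standard error of 0.138 (adjusted p = 7.75e-09), and the P7 minus P0 difference was -0.80 (adjusted p = 0.000264).

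Rps27l, a paralogue of Rps27 that is known as a target of p53, was the next. It gave 13, 13.3 and 13.6 at P0 and 12.5, 12.8 and 14 at P7, but 11.2, 11.6 and 11.8 in the adult, below every younger array. The difference was -1.73 ± 0.258 (SE, adjusted p = 2.78e-05) from P0 and -1.57 from P7 (adjusted p = 0.000233). The P7 minus P0 difference was -0.17 and did not pass (adjusted p = 0.643).

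Rps25 and Rps6 passed the test already between P0 and P7. Their probe sets had means of 9.67 and 9.43 over the arrays. Rps25, a small subunit protein used by some internal ribosome entry sites, had 10, 10.4 and 10.7 at P0, 9.0, 9.6 and 10.1 at P7, and 8.6, 9.1 and 10 in the adult, where KO3 alone reached the lowest value of P0. Rps6, the protein phosphorylated by the S6 kinases downstream of mTOR, had 9.7, 10.1 and 10.5 at P0, 8.8, 9.2 and 9.7 at P7, and 8.2, 9.0 and 9.5 in the adult. Both differed by -0.88 from P0 to P7 (adjusted p = 0.00775 for Rps25 and 0.00238 for Rps6). From P0 to the adult, Rps25 fell by 1.27 and Rps6 by 1.08 on the log2 scale (adjusted p = 0.000240 and 0.000210).

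Rplp0, the P0 protein of the stalk, and Rps19, the gene first found mutated in Diamond-Blackfan anaemia, fell by 1.02 and 0.73 (adjusted p = 0.00489 and 0.0189). The adult arrays of Rplp0 lay from 13 to 14 and its P0 arrays from 14.4 to 14.8. Those of Rps19 lay from 12.3 to 13.3 in the adult and from 13.5 to 13.9 at P0, so that neither gene overlapped between the ages. Rps9, which lies near the mRNA entry channel of the small subunit, fell by 0.53 (adjusted p = 0.0278), with adult arrays from 12.4 to 13.3 and P0 arrays from 13.3 to 13.7.

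The 4 genes that rose were Rps27, Rps15, Rpl39 and Rps4l. Rps15, which lies near the decoding site, went from 13.2, 13.45 and 13.8 at P0 to 13.6, 14.4 and 15.5 in the adult (0.98 ± 0.269, SE, adjusted p = 0.00486), and the ages overlapped. Rps27, a zinc finger protein of the small subunit, went from 7.5, 7.9 and 8.2 to 8.3, 8.8 and 10.1 (1.17 ± 0.362, adjusted p = 0.0107). Rpl39, a small protein at the exit tunnel, had 7.5 to 8.3 at P0, 7.0 to 8.5 at P7 and 8.2 to 9.8 in the adult. Its rise was 0.82 from P0 (adjusted p = 0.0215) and 1.27 from P7 (adjusted p = 0.00286). Rps4l, a paralogue of the X-linked Rps4x, rose by 0.75 (adjusted p = 0.00655), from 9.6 to 10.1 at P0 and 10.1 to 11.5 in the adult.

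In all, every adult array lay below every P0 array in 5 of the 47 genes (Rpl12, Rplp0, Rps6, Rps19 and Rps27l), against 21.1% of all probe sets tested. Every adult array lay above every P0 array in 1 gene, Rps27, against 17.0% of all.

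**Figure D2:**
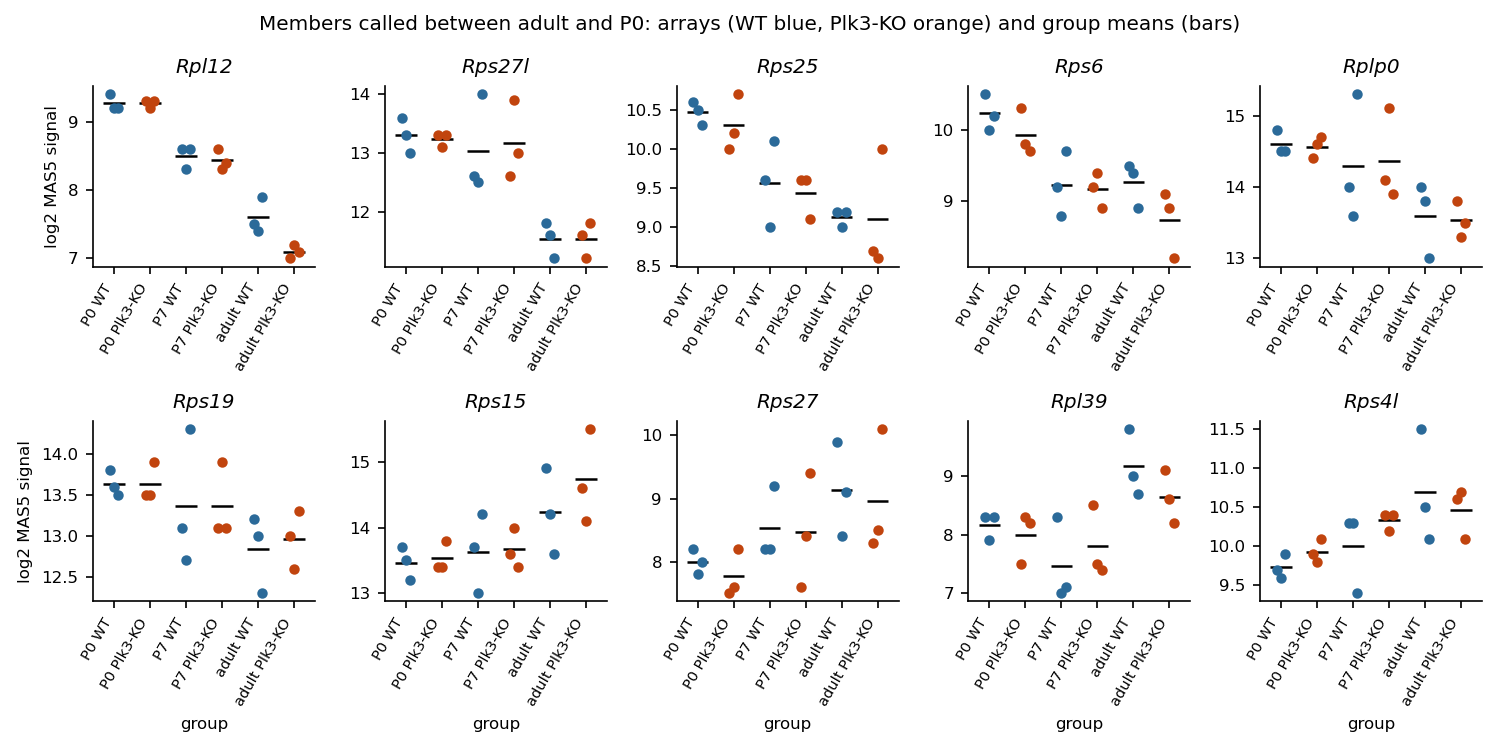
Log2 MAS5 signal (y axis) of 10 ribosomal protein genes in the 6 groups (x axis), for each array (points, WT blue and Plk3-KO orange) and as the mean of 3 arrays (bars). The genes shown were called between adult and P0, and Rps9, which was called as well, is not shown. Rpl12 falls in 2 steps without overlap between ages, while the adult arrays of Rps27l, at 11.2 to 11.8, lie below all younger arrays.

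The 2 intervals between these ages differed in which genes passed the test. From P0 to P7, 0 of 47 genes rose, against 17.4% of 23878 probe sets tested, and 3 fell (Rpl12, Rps6 and Rps25), against 19% of all. At an unadjusted p under 0.05 in limma the counts were also 0 and 3, against 45.3% of all probe sets in either direction. From P7 to the adult, 2 rose (Rps15 and Rpl39) against 17.8% of 23011 probe sets tested, and 4 fell (Rpl12, Rps27l, Rps9 and Rplp0) against 19.7%. Rps15 rose by 0.83 (adjusted p = 0.0233), Rps9 and Rplp0 both fell by 0.77 (adjusted p = 0.00672 and 0.0399). These intervals share the P7 arrays, of which 2 stood high in most of these genes. Without these, the P7 arrays KO2 and WT3, 0 rose (18.4% of all probe sets) and 9 fell (15.5%) from P0 to P7, and 14 rose (15.3%) and 3 fell (23.5%) from P7 to the adult, so that the counts of both intervals rest on these 2 arrays. With 1 array left out at a time, 1 to 6 genes rose from P7, with 6 and 4 without the adult arrays WT3 and KO2, and 1 without adult KO3, adult WT1, P7 KO3 or P7 WT2. Without the P7 arrays KO2 and WT3, the fall of Rplp0 from P7 was -0.33 and no longer passed.

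Other genes of the 6 with the smallest p in each direction did not pass. From P0 to P7 they were Rps19bp1 (0.37), Rps27 (0.62), Rps4l (0.33), Rps9 (0.23), Rpl10a (0.23), Rpl22l1 (0.15), Rpl39 (-0.45), Rps19 (-0.27) and Rps10 (-0.25), with adjusted p from 0.156 to 0.680. From P7 to the adult they were Rpl27a (0.57), Rps29 (0.68), Rps4l (0.42), Rps7 (0.48), Rps19 (-0.47) and Rps25 (-0.38), with adjusted p from 0.0564 to 0.213. Rps7 and Rps29 differed by 0.58 and 0.53 from P0 to the adult (adjusted p = 0.0600 and 0.0973). The other probe set of Rps7, 1435593_x_at, gave -0.35, with the opposite sign.

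The direction of the 47 measured genes as a whole was not settled by these arrays. As deposited, the median of the 47 genes differed by 0.10 between adult and P0. With each array centred on its own median it was 0.42, with 6 genes higher (32.3% of all probe sets) and 4 lower (23.9%), while the median of all probe sets moved from -0.22 to 0.15. After quantile normalization it was -0.34, with 4 genes higher (30.4%) and 25 lower (33.2%). With actin as a covariate it was -0.74, with 1 higher (24.5%) and 31 lower (23%). The actin difference itself went with age, from 1.0 to 1.3 on the P0 arrays and from 1.6 to 2.7 on the adult arrays. This fit therefore cannot tell age and the actin difference apart. Centred on the 385 other bright probe sets, the 47 genes had a median of -0.28, with 1 higher (14%) and 22 lower (44.7%). The median of all probe sets was then -0.64. As deposited, the probe sets with a mean above 13, ribosomal ones included, had themselves a median adult minus P0 difference of 0.27. This centring therefore cannot tell age and shifts between arrays apart either. Without the 4 arrays that stand apart, the median of the 47 genes was 0.18, with 16 higher (30.5%) and 8 lower (44%). Within WT arrays alone 1 rose (21.3%) and 5 fell (26.9%), and within Plk3-KO arrays alone 1 rose (20.1%) and 5 fell (25.2%). Rpl12, Rps27l, Rps25 and Rps6 passed as lower under all 34 settings that were run, and Rplp0 passed as lower under 33. Many of these settings only left out 1 array. Rpl12 and Rps25 have 1 probe set each, so that settings with other probe sets could not change their values. Rps27l and Rps6 kept the same probe set without those ending in _x_at and _s_at. Rps15 passed as higher under 33, and with actin as a covariate it was at -0.029, with the opposite sign.

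To compare the genes with each other, each array was centred on the median deviation of the 47 genes, a setting chosen after the values had been seen. A difference on this scale says how a gene moved relative to the family. The standard error of the adult minus P0 difference became smaller in 38 genes and larger in 9, and its median went from 0.256 to 0.109. The 9 were Rpl12, Rpl14, Rpl27a, Rpl39, Rpl7l1, Rps4l, Rps6, Rps19bp1 and Rps25, which did not follow the shifts between arrays as closely. Their probe sets had means from 7.81 to 10.77, whereas most of the 47 genes, which set the median used for centring, lay above 13. The smaller errors of the other 38 are in part built in, since the arrays were centred on these same genes. On this scale 11 genes rose, against 17.3% of 24829 probe sets tested, and 12 fell, against 27.2%. The lower genes were the 7 named above with Rpl27 (-0.52), Rpl37 (-0.62), Rps26 (-0.39), Rps20 (-0.24) and Rpl6 (-0.24). The higher genes were Rps15 (0.91), Rps27 (1.09), Rps7 (0.51), Rps29 (0.46), Rpl41 (0.44), Rps3, Rps14 and Rps24 (each 0.33), Rpl10a (0.29), Rpl13a (0.23) and Rpl19 (0.21). Rps27l had a relative difference of -1.81 ± 0.135 (SE), Rplp0 of -1.09 ± 0.115 and Rps19 of -0.81 ± 0.0998. Rpl39 and Rps4l, both among the 9 with a larger standard error, were at 0.74 and 0.68 and did not pass (adjusted p = 0.122 and 0.112).

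**Figure D3:**
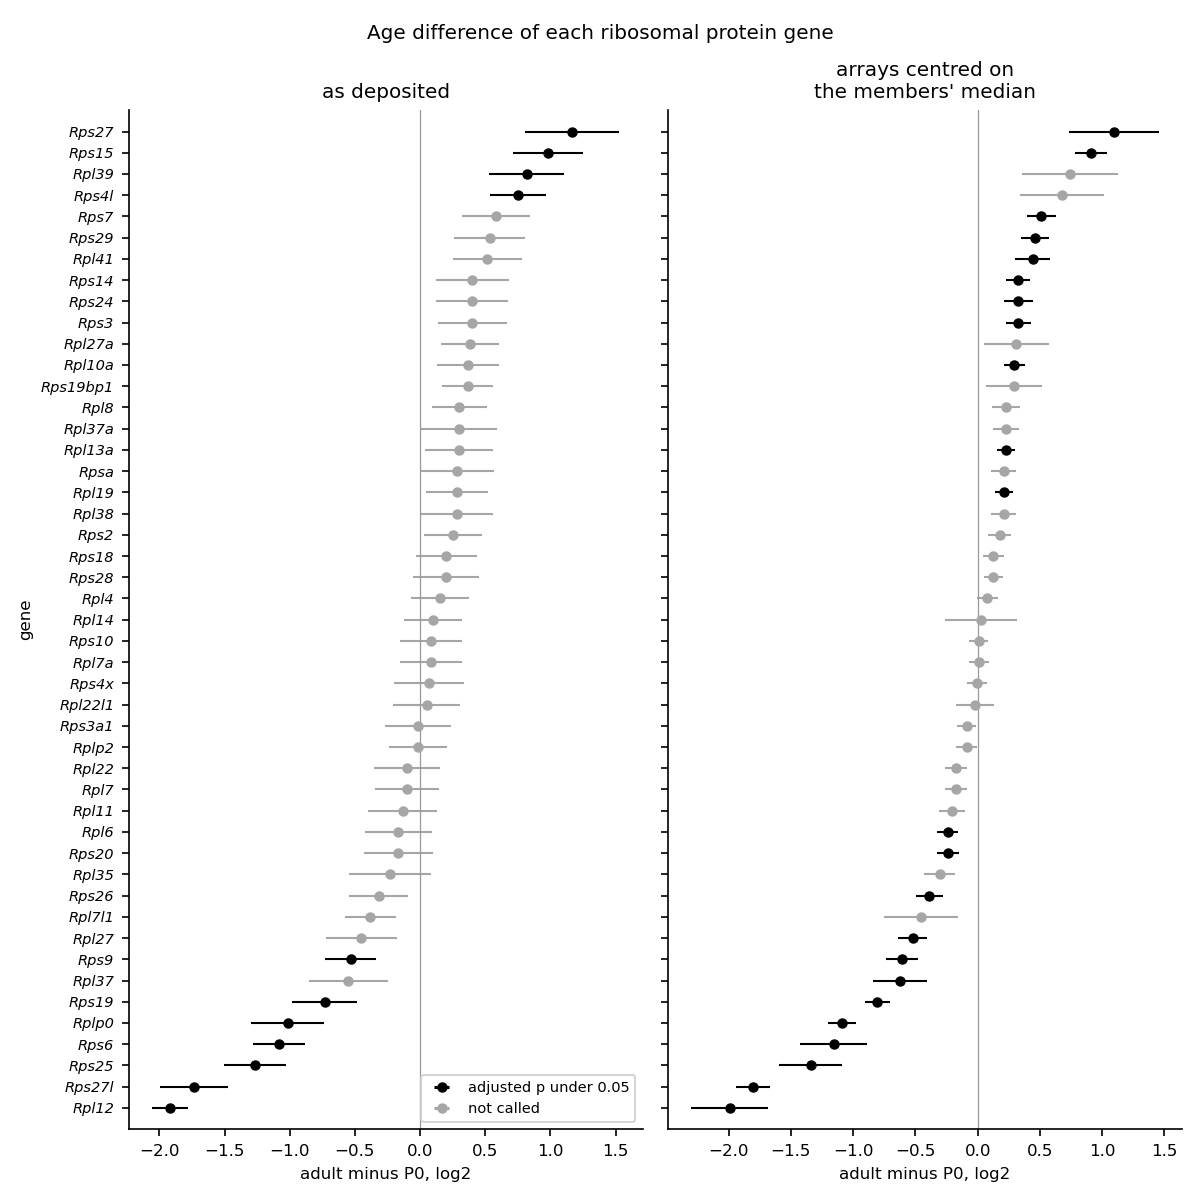
Adult minus P0 difference (x axis, log2, with standard error) of each of 47 ribosomal protein genes (y axis), on the deposited scale (left) and with arrays centred on the median of these genes (right). Black points passed an adjusted p under 0.05. On the right the error bars of 38 genes are shorter, and 23 genes pass in place of 11.

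The result for a gene depended on which of its probe sets was read. In 20 genes at least 2 probe sets were tested between adult and P0, and their differences lay more than 1 apart in 5 (Rps24, Rps9, Rpl41, Rps20 and Rps10). The median gap was 0.608, and in 9 of the 20 the probe sets had opposite signs. Rps20 gave -0.17 and -0.28 on the probe sets with the suffix _x_at but -1.90 and -1.85 on 1450417_a_at and 1421935_at (adjusted p = 2.02e-06 and 0.000507). The latter 2 had means of 8.10 and 7.45 at P0 but 6.20 and 5.60 in the adult, under the filter level of 7. They were thus tested by their level at P0, where they were high, and this filter favours falls. Rps24 gave 0.40 on 1436064_x_at and -1.87 on 1455195_at (adjusted p = 7.25e-05). Rps9 gave -0.53 on 1433689_s_at and -2.00 on 1426958_at (adjusted p = 2.43e-05).

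Rpl41, which encodes the smallest ribosomal protein, was called in both directions. It gave 0.67 on 1422623_x_at (adjusted p = 0.0402) and -1.18 and -1.22 on 1433530_at and 1454639_x_at (adjusted p = 0.000810 and 0.000900). In contrast, the 3 probe sets of Rps27l fell by 1.60, 1.75 and 1.73, and those of Rps29 gave 0.38 to 0.62. For Rps15, the probe set taken gave 0.98 and the other, 1416089_at, 0.38 (adjusted p = 0.0968). Probe sets with the suffixes _x_at and _s_at can bind more than 1 transcript, and ribosomal protein genes have many processed pseudogenes. Which transcript each probe set measured was not tested.

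The brightness of the probe set went with this split. Of 92 probe sets of these genes that were tested, 62 had a mean above 13, of which 3 rose and 4 fell, with a median difference of 0.04. The other 30 had a mean of 13 or less, of which 3 rose and 18 fell, with a median of -0.82. They include 1450417_a_at and 1421935_at of Rps20, with adult means under the filter level. Over all probe sets tested, 35.2% rose and 14.6% fell of those above 13 (median 0.27), and 26.1% rose and 37.1% fell of the others (median -0.23). Of the genes by their brightest probe set, 4 of 35 with a mean above 13 (11.4%, 1 higher and 3 lower) were called. Of those with a lower mean, 7 of 12 were called (58.3%, 3 higher and 4 lower). Beside the shares over all probe sets, the bright genes were called less often in both directions. The dimmer genes were called about as often as other dimmer probe sets, so that their calls do not set them apart. The 7 were Rpl12, Rps6, Rps25 and Rps27l, which fell, and Rps27, Rpl39 and Rps4l, which rose. No probe set of these 7 genes had a mean above 13, so that their changes could not be read on a bright one.

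**Figure D4:**
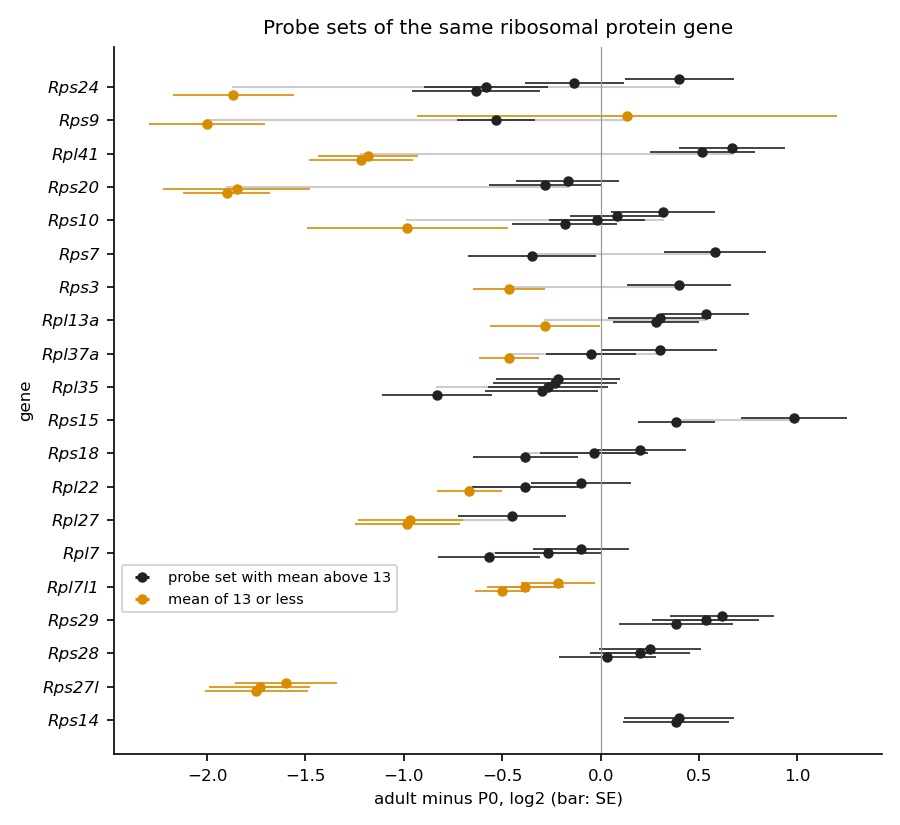
Adult minus P0 difference (x axis, log2, with standard error) of each tested probe set of 20 ribosomal protein genes (y axis), in black for probe sets with a mean above 13 and in orange for the others. Orange points of Rps24, Rps9, Rpl41 and Rps20 lie from -1.18 to -2.00, except 1 of Rps9 at 0.13, while the black points of these genes lie from -0.63 to 0.67.

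Among the paralogue pairs, the difference between Rps27 and Rps27l became smaller with age, as Rps27 rose and Rps27l fell. Within each array, Rps27 minus Rps27l was between -5.8 and -5.0 at P0, between -5.5 and -3.6 at P7 and between -3.3 and -1.7 in the adult, so that the adult arrays did not overlap with the younger ones. Since the levels come from different probe sets, only the change of this difference can be read. Rps4x minus Rps4l was 4.4 to 5.0 at P0 and 3.4 to 5.1 in the adult, with overlap. Rpl22 minus Rpl22l1 (0.8 to 1.3 and 0.5 to 1.1) and Rpl7 minus Rpl7l1 (3.6 to 4.1 and 3.6 to 5.7) overlapped as well. Rpl22l1 itself differed by 0.05 and Rpl7l1 by -0.38 between adult and P0, and neither passed.

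Several genes with known roles beyond the ribosome did not pass between adult and P0 on the probe set taken for them. Rpl11, which binds Mdm2 when ribosome assembly fails, differed by -0.13 ± 0.266 (SE) between adult and P0. Rpsa, also known as a laminin receptor, differed by 0.28 ± 0.286, with 13.7 to 14.2 at P0 and 13.4 to 14.8 in the adult. Rps3, which also takes part in DNA repair, and Rps14, whose loss is known from the 5q- syndrome, both differed by 0.4, Rpl13a by 0.3 and Rplp2, a partner of Rplp0 in the stalk, by -0.02. The adjusted p of these 6 ran from 0.195 to 0.952. Other probe sets did pass for Rps3, which gave -0.47 on 1455600_at (adjusted p = 0.0358), with the opposite sign, and for Rpl13a, which gave 0.53 on 1417608_a_at (adjusted p = 0.0440). Relative to the family, Rps3, Rps14 and Rpl13a were among the higher genes.

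The other parts of the translation machinery are set beside these genes from lists, of which those of translation factors and of other mRNAs with a tract share 9 genes and the latter shares Npm1 with ribosome biogenesis. Over all probe sets tested, 26.3% rose and 36.6% fell. Of 76 mitochondrial ribosomal protein genes, 26 (34.2%) rose and 11 (14.5%) fell from P0 to the adult (median 0.13), with Mrpl49 at 1.58, Mrps18a at 1.28 and Mrps34 at 0.97. Of 48 ribosome biogenesis genes, 3 (6.25%) rose and 26 (54.2%) fell (median -0.49), among them Gar1 of the H/ACA particles that modify ribosomal RNA (-2.20), Taf1d of the RNA polymerase I initiation complex (-2.13) and Nop56 of the box C/D particles (-1.20). Of 31 translation factors, 5 (16.1%) rose and 9 (29.0%) fell (median -0.03). Eef1a2, the elongation factor of neurons and muscle, rose by 3.07, and Eif3a and Eif3l fell by 1.60 and 1.12. Of 16 other mRNAs known for a terminal oligopyrimidine tract, 2 (12.5%) rose and 4 (25%) fell (median -0.05), with Hnrnpa1 at -1.97, Npm1 at -1.18 and Eef1d at -0.82. Of 16 regulators, 3 (18.8%) rose and 8 (50%) fell (median -0.44), with Mycl at -5.77, Mycn at -2.52 and Eif4ebp2, which holds back cap-dependent translation, at -2.25. Each of the genes named passed the test.

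Between Plk3-KO and WT retinas, no ribosomal protein gene passed the test at any age. The number called was 0 of 47 in each direction in the adult, at P7, at P0 and for the mean over ages, against 0% of 21005, 21390, 22611 and 25085 probe sets tested. It was also 0 for the difference in age change between genotypes, against 0% of 24775. At an unadjusted p under 0.05, limma gave 1 gene in the adult (Rpl12, lower), against 4.80% of all probe sets, and 0 in each of the other 4 comparisons, against 0.575% at P7, 0.376% at P0, 1.58% for the mean over ages and 1.85% for the difference in age change. The methods' t-test likewise gave 1 lower in the adult (3.14% of all probe sets in either direction) and 0 at P7 (1.17%) and P0 (2.22%), and 0 after Benjamini-Hochberg adjustment. On the brightest probe set of each gene, the differences of the 47 genes ran from -0.53 to 0.50 in the adult (median 0.13), from -0.20 to 0.43 at P7 (0.07) and from -0.30 to 0.40 at P0 (-0.03). Their median standard error was 0.362 at each age, and 0.209 for the mean over ages, in which the differences ran from -0.30 to 0.29.

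Adult Rpl12 had 7.0, 7.2 and 7.1 in Plk3-KO retinas, against 7.5, 7.4 and 7.9 in WT retinas, without overlap. Its difference was -0.50 ± 0.195 (SE) with an unadjusted p = 0.0209 in limma and an adjusted p = 0.977. At P0 the genotypes were equal in their means, at 9.27, and at P7 they differed by -0.07. The test of the difference in age change gave -0.50 with an adjusted p = 1.00, so that a difference between the ages did not pass.

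Rps6 lies on chromosome 4, as Plk3 does. It had 9.1, 8.9 and 8.2 in adult Plk3-KO retinas, against 9.5, 9.4 and 8.9 in WT, so that 8.9 occurred in both. The difference was -0.53 in the adult, -0.07 at P7, -0.30 at P0 and -0.30 ± 0.162 (SE) over the ages (unadjusted p = 0.0831, adjusted p = 1.00). The other 3 genes of chromosome 4, Rpl11, Rpl22 and Rps20, had differences from -0.07 to 0.27 at each age.

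Other probe sets of these genes gave larger differences between the genotypes, and 0 of them passed after adjustment (adult 90 tested, P7 91 and P0 92, brightest ones included). Those of Rpl41 and Rps9 were picked after their values had been seen. For Rpl41, 1433530_at had 7.1, 7.0 and 7.6 in adult Plk3-KO retinas, against 8.6, 8.2 and 8.5 in WT, without overlap. This difference was -1.20 ± 0.359 (SE), with an unadjusted p = 0.00412 in limma and an adjusted p = 0.977, while at P7 and P0 the genotypes overlapped. For Rps9, 1434624_x_at varied between 6.4 and 12.7 over the arrays, and its genotype difference was 1.57 for adult, 2.67 for P7 and 1.70 for P0 retinas, with 1.98 ± 0.871 (SE) over the ages (unadjusted p = 0.0374 in limma, adjusted p = 1.00).

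The remaining genes with the smallest p were Rps15 (0.50) and Rpl39 (-0.53) in the adult, Rpl27a (0.43), Rps4l (0.33), Rpl39 (0.33) and Rps19bp1 (-0.20) at P7, and Rpl27a (0.40), Rps4l (0.20) and Rps18 (-0.20) at P0. Over the ages they were Rpl12 (-0.19), Rpl27a (0.29) and Rps29 (0.22). Their adjusted p was 0.977 or higher. Without the 4 arrays that stand apart, adult Rps15 differed by -0.20, with the opposite sign.

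**Figure D5:**
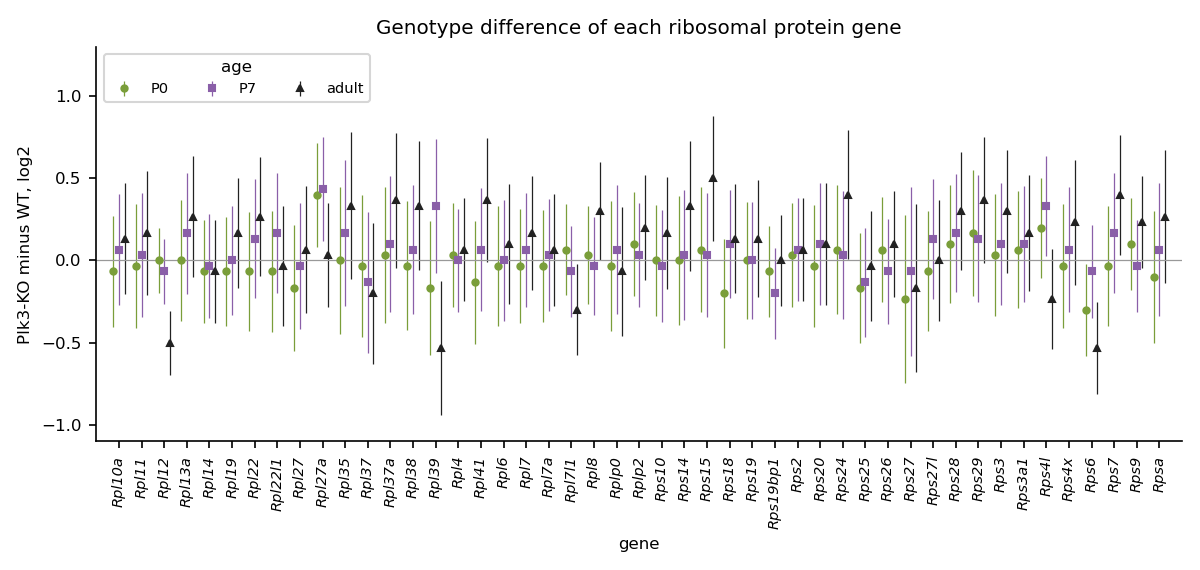
Plk3-KO minus WT difference (y axis, log2, with standard error) of each of 47 ribosomal protein genes (x axis) at P0, P7 and in the adult. Each gene is given by its brightest probe set. No point passed the test, and the differences lie between -0.53 and 0.50.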

How the data were processed

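Retinal RNA was amplified, biotinylated and hybridised to Affymetrix mouse expression arrays. The authors extracted MAS5 signals with the Affy package of R and deposited them as log2 values for 45101 probe sets on 18 arrays, with 1 decimal. The MAS5 version and the build of the probe annotation are not given in the sources used here, and no normalization was added. The 64 controls were left out. Of the others, 34945 probe sets carry 1 gene symbol, 932 several and 9160 none.

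The genes and lists were chosen with earlier results of these data known. Genes named are, by rule, the 6 with the smallest p in each direction of each age contrast, the 4 of each genotype contrast, genes with known further roles, those on chromosome 4, paralogue pairs, genes whose probe sets move apart, and 3 of each other list.

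R 4.3.3 with limma 3.58.1 was used, with 1 mean per age and genotype (12 residual and 4.07 prior degrees of freedom), moderation along the mean and Benjamini-Hochberg adjustment within each contrast. Age contrasts are means over both genotypes. The script was tested on simulated data. The number of arrays limits the precision. Alternatives were other scalings, filters, probe sets and sets of arrays. Embryonic arrays of the study were not used here.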

Additional observations from a re-analysis of the deposited data

How the results depend on the processing

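Counts of ribosomal protein genes called higher and lower are given in that order, each with the share of all probe sets tested that was called in that direction under the same setting. From P0 to P7 they were 0 (17.4%) and 3 (19%) as deposited, 0 (19.7%) and 1 (9.84%) with arrays centred on their medians, 0 (21.7%) and 6 (17.5%) after quantile normalization, 0 (17.3%) and 6 (18.9%) without _x_at and _s_at probe sets, 2 (27.6%) and 17 (28.7%) with array weights, 1 (23.6%) and 23 (22.8%) without the 4 arrays and 0 (10.6%) and 1 (10.5%) in Plk3-KO arrays alone. From P7 to the adult they were 2 (17.8%) and 4 (19.7%) as deposited, 1 (14.8%) and 2 (13.1%) with arrays centred on their medians, 2 (18%) and 19 (20.3%) after quantile normalization, 19 (26.8%) and 5 (36.7%) with array weights, 1 (18.2%) and 4 (18.3%) with the mean over probe sets, 26 (20.9%) and 3 (35.4%) without the 4 arrays, 1 (18.7%) and 25 (13.5%) with actin as a covariate, 1 (9.95%) and 3 (9.75%) in WT arrays alone and 0 (9.16%) and 2 (10%) in Plk3-KO arrays alone. From P0 to the adult they were 4 (26.3%) and 7 (36.6%) as deposited, 6 (32.3%) and 4 (23.9%) with arrays centred on their medians, 4 (30.4%) and 25 (33.2%) after quantile normalization, 9 (32.1%) and 10 (45.2%) with array weights, 5 (26.1%) and 11 (37.3%) without _x_at and _s_at probe sets, 16 (30.5%) and 8 (44%) without the 4 arrays, 1 (24.5%) and 31 (23%) with actin as a covariate, 1 (21.3%) and 5 (26.9%) in WT arrays alone and 1 (20.1%) and 5 (25.2%) in Plk3-KO arrays alone.

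Among the settings chosen after seeing the data, centring on other bright probe sets gave 0 (7.26%) and 18 (21.3%), 3 (8.82%) and 6 (14.1%), and 1 (14%) and 22 (44.7%) for the 3 contrasts in this order. Centring on the median of the ribosomal protein genes gave 1 (9.44%) and 2 (7.26%), 5 (5.88%) and 6 (9.63%), and 11 (17.3%) and 12 (27.2%), and the same without the 4 arrays 5 (34.8%) and 8 (8.95%), 8 (6.45%) and 10 (52.7%), and 16 (24.6%) and 16 (44.9%). Without the P7 arrays KO2 and WT3, the first 2 contrasts gave 0 (18.4%) and 9 (15.5%), and 14 (15.3%) and 3 (23.5%). Leaving out 1 array at a time gave 0 to 0 higher and 3 to 3 lower from P0 to P7, 1 to 6 and 3 to 4 from P7 to the adult, and 3 to 9 and 5 to 8 from P0 to the adult, with shares of all probe sets of 15 to 27.4% higher and 15.6 to 39% lower over the 3 contrasts. The higher counts moved most without adult WT replicate 3 (6 and 9) and adult Plk3-KO replicate 2 (4 and 8), and from P7 they were 1 without adult Plk3-KO replicate 3, adult WT replicate 1, P7 Plk3-KO replicate 3 or P7 WT replicate 2. The cause was not tested. In every setting 0 genes were called between genotypes.

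Some named genes changed sign. From P0 to P7, Rps9 gave -0.026, -0.042, -0.062 and -0.042 with array weights, without the 4 arrays, centred on bright probe sets and without the 2 P7 arrays, and -0.77 and -1.28 with the mean over probe sets and without _x_at and _s_at probe sets. In the same 4 settings Rpl10a gave -0.0052, -0.11, -0.062 and -0.11, and Rpl22l1 -0.24, -0.24, -0.15 and -0.24, as well as -0.0505 after quantile normalization. Leaving out 1 array at a time gave Rpl22l1 -0.05 to 0.275, below 0 without P7 Plk3-KO replicate 2 or P7 WT replicate 3 (-0.042). Rpl39 gave 0.12 with array weights and 0.055 centred on the family without the 4 arrays. The actin difference was itself higher in the adult than at P0, without overlap. With it as a covariate, the values from P7 and from P0 to the adult were -0.049 and -0.029 for Rps15. They were -0.25 and -0.54 for Rps29 and -0.39 and -0.42 for Rps7. After quantile normalization they were -0.35 and -0.34 for Rps29 and -0.12 and -0.020 for Rps7. Between genotypes, Rps15 gave -0.069 and -0.20 in the adult (array weights, without the 4 arrays), Rps29 -0.0097 and -0.021 over the ages (array weights, actin), and Rpl27a -0.017 at P7 and Rps18 0.14 at P0 with the mean over probe sets. At P7, Rps4l gave -0.05 centred on the family without the 4 arrays, and Rpl39 -0.017 to 0.75 with 1 array left out, the lowest without P7 Plk3-KO replicate 1.

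The labels name no shared litters. Arrays of equal number did not correlate throughout (deviations from the group means, adult 0.49, 0.09 and 0.54, P7 0.41, -0.49 and -0.61, P0 0.18, -0.05 and 0.10). Whether arrays of equal number share a litter cannot be told from these values. With the replicate number as a block, 0 (16.9%) and 3 (18.1%), 2 (17.2%) and 3 (19.3%), and 4 (26.1%) and 7 (36.2%) genes were called over the ages, and 0 between genotypes. The groups of 3 arrays limit all tests between genotypes.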
